A study of Mus musculus with 8 samples.

Results

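The glycolysis and hypoxia response genes examined here are a list of 37 genes: 17 glycolytic enzymes, 6 transporters and switch kinases that sit at the entry and exit of the pathway, and 14 other genes known to respond to low oxygen. They were chosen by name and not by their measured values, although with earlier results of these data known. Of the 37, 33 had a probe set annotated to their symbol alone, out of 22180 genes with such a probe set on the array, and 29 of these passed the filter on low signal and were tested. No such probe set was matched to Gpi1 or Eno1, and Aldoa and Ankrd37 were matched only through probe sets that carry several symbols, so these 4 are named without a value. Pfkm, Eno2, Ldha and Slc2a3 had a mean signal at or below the filter, 5.18 on the log2 scale, and received no test.

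The samples were labelled as club cells, the secretory epithelial cells of the small airways, taken from mouse lungs and measured on a gene expression array. Markers of other lung cells also had high log2 means. In Atgl KO/cTg and wt/cTg these were 12.53 and 12.93 for Sftpc (alveolar type 2) and 11.70 and 11.81 for Dcn (fibroblasts). The club cell marker Scgb1a1 had 12.92 and 12.99. The values are those of the whole preparation, and the part of club cells in them was not tested. The Atgl KO/cTg group was labelled as a knockout of adipose triglyceride lipase (Atgl), and the wt/cTg group as wild type. This enzyme begins the release of fatty acids from stored triglyceride, and its gene is now called Pnpla2. Each group held 4 arrays, and each array measured RNA from a pool of 3 or 4 mice (16 mice without Atgl and 14 with it), so the replicate is a pool. The mice were 38 to 48 weeks old, ate standard chow and received no treatment. Both genotypes carried cTg, which the labels do not expand, so neither its promoter nor its target cells can be stated here. The design text speaks of sets of both genotypes, and mouse numbers in the titles run on from pools of one genotype to the other in 3 of 4 runs, but no label says which pools form a set.

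Glycolysis splits glucose into pyruvate, with glucose transporters and hexokinases at the entry, phosphofructokinase as the regulated step, and lactate dehydrogenase and monocarboxylate transporters at the exit. When oxygen is low, the prolyl hydroxylases of the EGLN family stop marking hypoxia-inducible factor (HIF) alpha subunits for destruction. The HIF dimer then binds a short core sequence, the hypoxia response element, near many of these genes and raises their transcription. Club cells are secretory and rich in smooth endoplasmic reticulum, and glucose and fatty acids are alternative fuels for their mitochondria.

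The promoters show what the members share in sequence. RefSeq promoters (build GRCm38.p6) were matched for 35 of the 37 members, and the 250 bases before each annotated start were searched on both strands for ACGTG or GCGTG, the core letters of the hypoxia response element. At least 1 core stood in 32 of the 35 members (91.4%), against 58.2% of the 10319 tested genes with a promoter in the table and 41.5% of 27025 genes. Counted by window, because some genes have several starts, 41 of 53 member windows (77.4%) held a core, against 52.9% of the windows of tested genes and 38.6% of all windows. The promoters were not matched for base composition, and a match is a description, not a bound site. Printed here are the windows of the 3 members with the smallest p-values in the comparison (Ldhb, Pfkfb3 and P4ha1) and of Pgk1 and Ldha, textbook HIF targets. The table held a second window for Ldha and for Pfkfb3, and the one with more cores is shown, with cores in capitals and each sequence read 5′ to 3′ on the strand of the gene.
Pgk1, chrX:106186850-106187099, plus strand: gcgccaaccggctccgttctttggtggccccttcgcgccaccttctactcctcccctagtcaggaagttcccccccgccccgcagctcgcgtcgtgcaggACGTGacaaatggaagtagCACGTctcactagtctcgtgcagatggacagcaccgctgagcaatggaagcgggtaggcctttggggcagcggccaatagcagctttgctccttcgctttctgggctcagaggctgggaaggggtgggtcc
Ldha, chr7:46845554-46845803, plus strand: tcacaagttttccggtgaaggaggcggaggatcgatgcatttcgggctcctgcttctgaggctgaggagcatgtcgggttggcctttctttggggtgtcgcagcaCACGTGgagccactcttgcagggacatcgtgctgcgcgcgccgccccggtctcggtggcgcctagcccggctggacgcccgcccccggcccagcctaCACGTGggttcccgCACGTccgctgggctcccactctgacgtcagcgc
Ldhb, chr6:142507958-142508207, minus strand: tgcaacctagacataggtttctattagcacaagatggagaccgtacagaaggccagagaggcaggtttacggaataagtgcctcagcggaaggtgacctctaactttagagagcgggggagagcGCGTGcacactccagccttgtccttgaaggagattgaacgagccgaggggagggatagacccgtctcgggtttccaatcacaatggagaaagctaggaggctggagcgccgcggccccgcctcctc
P4ha1, chr10:59323046-59323295, plus strand: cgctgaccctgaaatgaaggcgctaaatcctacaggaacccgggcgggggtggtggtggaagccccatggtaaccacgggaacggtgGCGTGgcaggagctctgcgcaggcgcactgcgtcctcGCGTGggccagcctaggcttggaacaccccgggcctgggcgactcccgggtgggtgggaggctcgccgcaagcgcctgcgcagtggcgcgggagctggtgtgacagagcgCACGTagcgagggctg
Pfkfb3, chr2:11502091-11502340, minus strand: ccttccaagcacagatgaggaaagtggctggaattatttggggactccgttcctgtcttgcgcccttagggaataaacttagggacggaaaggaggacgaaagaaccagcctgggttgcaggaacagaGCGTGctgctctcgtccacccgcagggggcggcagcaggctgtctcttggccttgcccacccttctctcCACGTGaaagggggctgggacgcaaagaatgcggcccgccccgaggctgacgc

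In the Pgk1 window the cores began 150 and 131 bases before the start, on opposite strands. The Ldha window shown held 2 overlapping pairs, each the palindrome CACGTG, starting 145 and 48 bases before the start, and a further core at 34, and the second Ldha window held 1 core, at 59. The Ldhb window held 1 core, 126 bases before the start. The P4ha1 window held 3, at 163, 126 and 16 bases, and the Pfkfb3 window shown held a core at 122 and a CACGTG pair at 53. The second Pfkfb3 window held 1 core, at 60. Members with a core differed in both directions between genotypes. Among the 27 tested members with a core, 12 were above 0 and 15 below, with a median difference of -0.0086 on the log2 scale, and Tpi1 was the 1 tested member with a promoter and no core.

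No glycolysis or hypoxia gene of the list passed the threshold between genotypes. In limma's moderated test with Benjamini-Hochberg adjustment over 13112 genes, 0 of the 29 tested members had an adjusted p under 0.05, and the lowest adjusted p was 0.433, for P4ha1. Over all genes 13 passed, which is 0.0991%. With single arrays left out that total ran from 1 to 25, while the members past the threshold stayed at 0. The arrays whose removal left 1 or 2 genes were replicates 1, 3 and 4 of Atgl KO/cTg and 2, 3 and 4 of wt/cTg, and 25 passed without replicate 1 of wt/cTg. At an unadjusted limma p under 0.05 there were 3 members of 29 (10.3%), Ldhb higher and Pfkfb3 and P4ha1 lower in Atgl KO/cTg, beside 7.95% of all genes. The groups did not overlap for 2 members, Ldhb and P4ha1, beside 4.35% of all genes.

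The differences were small and fell on both sides of 0. Of the 29 tested members 14 were higher and 15 lower in Atgl KO/cTg, with a median difference (Atgl KO/cTg minus wt/cTg, log2) of -0.0012, and the median over all genes was -0.0073. The 95% interval of the difference lay within 1.5-fold in either direction for 25 members (86.2%), close to the 86.5% of all genes, and within 2-fold for all 29. The 4 members whose interval reached past 1.5-fold were Slc16a1, Vegfa, Adm and Egln3. For these 4 the interval still includes a change of 1.5-fold in at least 1 direction.

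**Figure D1:**
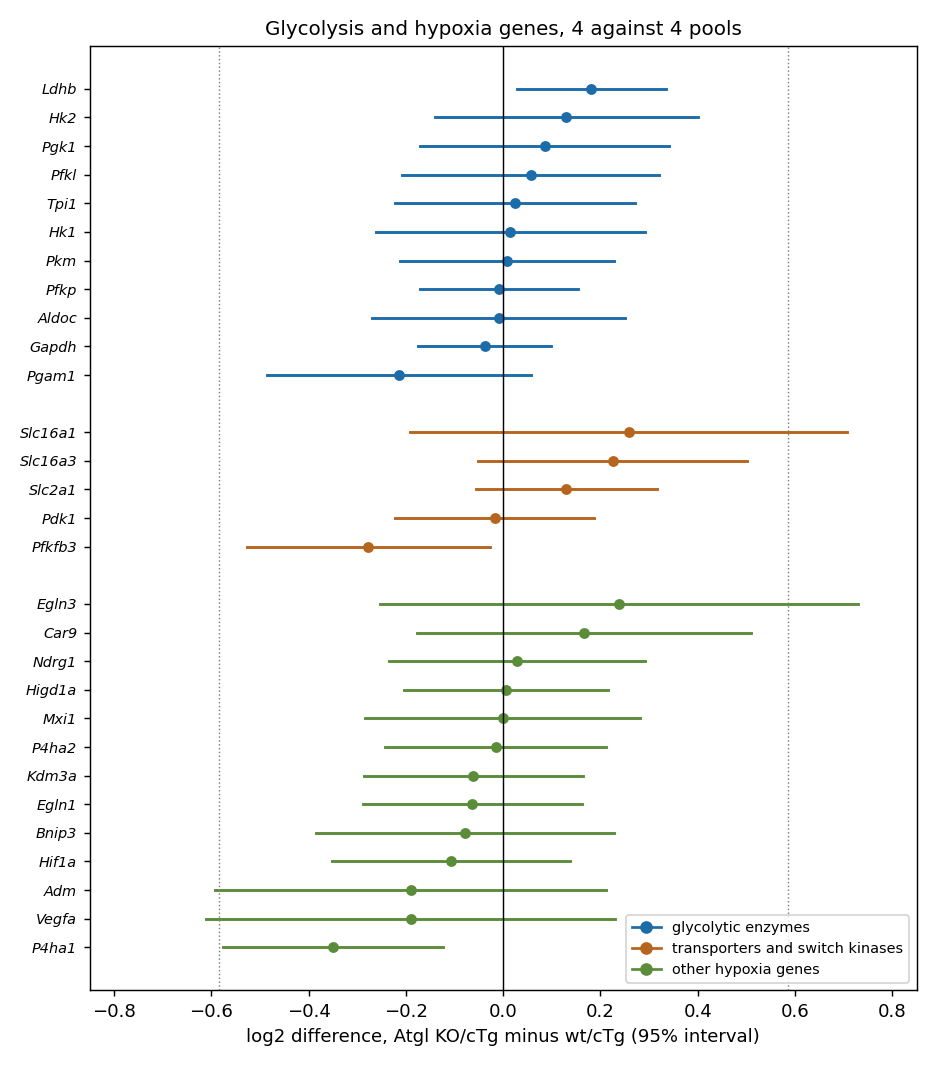
Difference between Atgl KO/cTg and wt/cTg (log2, horizontal axis) for each of the 29 tested members, with the 95% interval from limma, 4 pools per genotype. The glycolytic enzymes lie close to 0, and the intervals of Ldhb, Pfkfb3 and P4ha1 are the 3 that leave out 0.

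The targeted gene was lower in the group labelled as its knockout. Pnpla2 signal was 6.99, 7.16, 7.09 and 6.70 in the Atgl KO/cTg pools and 8.70, 8.63, 8.62 and 8.86 in the wt/cTg pools (log2). The groups did not overlap, and the difference was -1.72 ± 0.11 (SE, n = 4 per group), with an adjusted p of 0.000116 in limma. The ratio was 0.304, and the Atgl KO/cTg mean, 6.98, stayed above the filter of 5.18. Arrays correlated with each other at 0.965 to 0.985 over all probe sets. One library stood apart in a gene outside the list: the X-inactivation RNA Xist was at 3.75 for wt/cTg replicate 4, whereas the other 7 pools lay between 9.34 and 10.67. Xist is transcribed in female cells, the labels give no sex, and the part of this pool's Xist level in the members' values was not tested. Without this pool 0 members passed the adjusted limma threshold and 3 had an unadjusted p under 0.05, as with it. Cell type markers were read from fixed lists. All 12 club cell markers passed the filter, with mean log2 levels of 11.30 to 11.37 in Atgl KO/cTg, against 11.10 to 11.38 in wt/cTg, and 9 of the 12 were above 0. Of other lung cells, all 10 alveolar type 2 markers were below 0 (median difference -0.38). Their mean log2 levels were 10.65 to 10.86 in Atgl KO/cTg, against 11.06 to 11.50 in wt/cTg. In limma 4 of them passed the adjusted threshold. No gene of the other marker lists passed it. The part of alveolar type 2 cells in the members' values was not tested. All 10 fibroblast and smooth muscle markers (median -0.37) and 7 of 8 alveolar type 1 markers (median -0.27) were below 0, beside 52.2% of all genes. All 7 tested neutrophil (median 0.56), 7 goblet cell (0.70) and 7 ciliated cell markers (0.23) were above 0, beside 47.8% of all genes. In limma, 5 goblet cell, 4 neutrophil and 2 ciliated cell markers had an unadjusted p under 0.05, beside 7.95% of all genes. So did 4 fibroblast and smooth muscle and 2 alveolar type 1 markers. The macrophage and lymphocyte lists had medians of -0.0012 and -0.03. The pool with low Xist, wt/cTg replicate 4, was also at the edge in several lists. Its list mean was the highest of all pools for alveolar type 1 (9.35), alveolar type 2 (11.50), endothelial (9.07) and fibroblast and smooth muscle markers (8.66). It was the lowest for club cell (11.10), goblet cell (7.36) and lymphocyte markers (8.62). The part of these cells in that pool's member values was not tested. In a pooled sample, fewer cells of a type and less RNA per cell cannot be told apart.

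Most glycolytic enzymes lay near 0, with Pgam1 and Ldhb farthest from it. The glucose phosphate isomerase and enolase steps had no tested member. Of the 11 tested, 7 were higher and 4 lower in Atgl KO/cTg, 0 passed the adjusted threshold, and every interval lay within 1.5-fold. The median difference was 0.01, and it was -0.02 with each array centred on its own median. At the first step, which traps glucose in the cell, the hexokinases Hk1 and Hk2 differed by 0.01 ± 0.13 and 0.13 ± 0.12 (log2, SE). At the committed step the phosphofructokinase subunits Pfkl and Pfkp differed by 0.06 ± 0.12 and -0.01 ± 0.07. Pfkm, the muscle subunit, was below the filter, at 4.83 ± 0.11 in Atgl KO/cTg, against 4.71 ± 0.44 in wt/cTg (SD, n = 4 each). Hk2 had the largest difference of these, and its 95% interval, from -0.14 to 0.40, includes 0.

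The enzymes that split and rearrange the sugar behaved alike. Aldoc, an aldolase, differed by -0.01 ± 0.12 and Tpi1, which interconverts the 2 triose phosphates, by 0.02 ± 0.11 (log2, SE). Gapdh, which makes the first NADH of the pathway and had the highest mean signal among the enzymes, read 11.62, 11.58, 11.65 and 11.58 in Atgl KO/cTg, against 11.77, 11.62, 11.68 and 11.52 in wt/cTg. The wt/cTg pools spanned the whole range of the Atgl KO/cTg pools. The difference was -0.04 ± 0.06 (SE), with an interval from -0.17 to 0.10 and an adjusted p of 0.926 in limma. All 3 probe sets of Gapdh gave a difference between -0.09 and -0.04, and the one at -0.09 had a mean of 3.73, below the filter.

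In the later steps of the pathway 1 enzyme had an interval that left out 0. Pgk1, which makes the first ATP, differed by 0.09 ± 0.12, and Pkm, the pyruvate kinase, by 0.01 ± 0.10 (log2, SE). Pgam1, which moves the phosphate of phosphoglycerate, differed by -0.21 ± 0.12, but its other probe set read 0.32, so the sign depends on which probe set is used. Eno2, the neuronal enolase, was below the filter, at 4.90 ± 0.24 in Atgl KO/cTg, against 4.76 ± 0.02 in wt/cTg (SD, n = 4 each). Eno3, an enolase outside the members, was tested and differed by 0.06 (adjusted p = 0.947 in limma).

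Ldhb, the lactate dehydrogenase subunit of oxidative tissues, was the only enzyme of the 11 tested with an unadjusted limma p under 0.05. That is 9.09%, close to the 7.95% of all genes. Ldhb read 10.71, 10.52, 10.49 and 10.72 in Atgl KO/cTg, against 10.42, 10.39, 10.45 and 10.45 in wt/cTg (log2). Every Atgl KO/cTg pool was above every wt/cTg pool, and the gap between the groups was narrow. The difference was 0.18 ± 0.07 (SE), a ratio of 1.13 (95% interval 1.02 to 1.26), and it did not pass the threshold (unadjusted p = 0.0248, adjusted p = 0.535 in limma). The exact two-sided permutation test gave 0.0286, the smallest p that 4 against 4 allows. With runs of mouse numbers as a block the difference was 0.19 and the unadjusted limma p 0.0507. Ldha, the subunit that dominates in glycolytic tissue, ran from 4.94 to 5.23 in Atgl KO/cTg, against 4.67 to 5.14 in wt/cTg. These values lie around the filter, the groups overlap, and levels of the 2 subunits cannot be compared across probe sets.

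**Figure D2:**
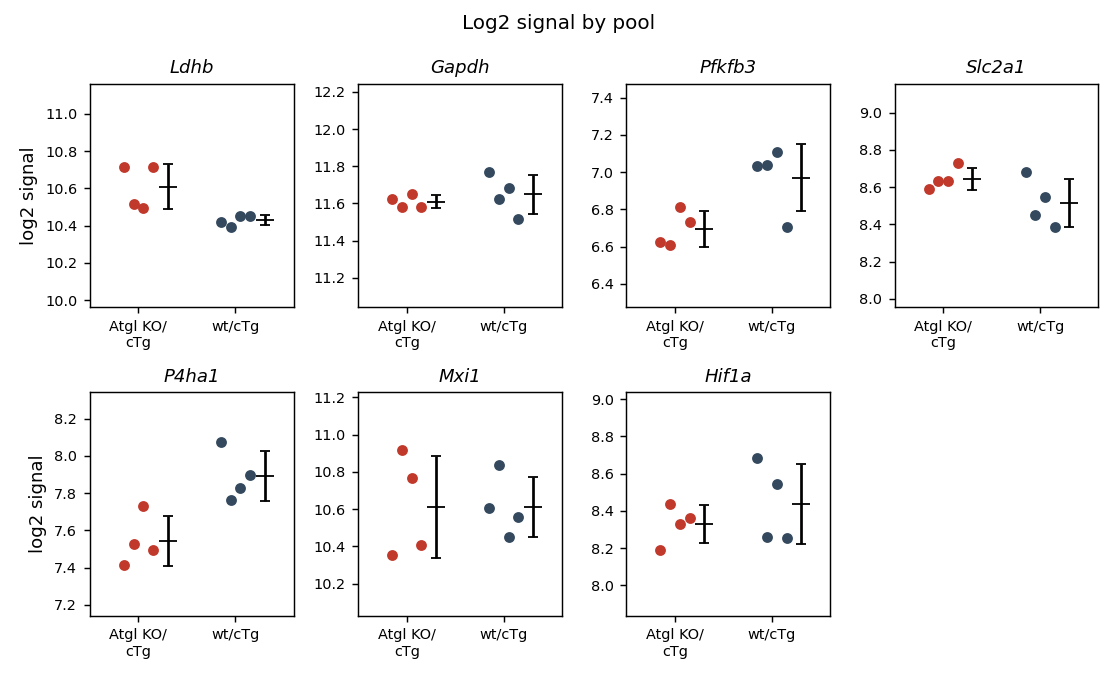
Log2 signal of Ldhb, Pfkfb3, P4ha1, Gapdh, Slc2a1, Mxi1 and Hif1a in each of the 8 pools, points for single pools and lines for group means with SD. Ldhb and P4ha1 are the 2 members whose genotypes do not overlap, and wt/cTg replicate 4 lies among the Atgl KO/cTg pools for Pfkfb3.

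Of the transporters and switch kinases 5 were tested, 3 higher and 2 lower in Atgl KO/cTg, with a median difference of 0.13 and 0 past the adjusted threshold. Slc2a1, the basal glucose transporter, had the highest mean of the 5. It read 8.59, 8.63, 8.63 and 8.73 in Atgl KO/cTg, against 8.68, 8.45, 8.55 and 8.38 in wt/cTg. Only wt/cTg replicate 1 reached into the Atgl KO/cTg range. The difference was 0.13 ± 0.08 (SE), with an interval from -0.06 to 0.32 and an adjusted p of 0.764 in limma. The second probe set of Slc2a1, whose mean of 5.05 was below the filter, gave 0.04. Slc2a3, a high-affinity glucose transporter, was below the filter at 5.06 ± 0.18 and 5.05 ± 0.13 (SD, n = 4 each).

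The tested monocarboxylate transporters among the members, which carry lactate and pyruvate across the membrane, had positive differences. Slc16a1 differed by 0.26 ± 0.20 (log2, SE) and Slc16a3, the exporter of glycolytic cells, by 0.22 ± 0.13. Both intervals include 0, from -0.19 to 0.71 for Slc16a1 and from -0.05 to 0.50 for Slc16a3. The Slc16a1 value moved with single pools, to 0.12 without replicate 2 of Atgl KO/cTg, 0.15 without replicate 3 of wt/cTg and 0.44 without replicate 3 of Atgl KO/cTg. With runs of mouse numbers as a block it was 0.07. Slc16a7, a monocarboxylate transporter outside the members, differed by -0.06 (adjusted p = 0.936 in limma).

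The 2 switch kinases act on opposite ends of the pathway. Pfkfb3 makes the sugar bisphosphate that activates phosphofructokinase. It read 6.62, 6.61, 6.81 and 6.73 in Atgl KO/cTg, against 7.03, 7.04, 7.11 and 6.70 in wt/cTg. The first 3 wt/cTg pools were above every Atgl KO/cTg pool, and wt/cTg replicate 4 was not. The difference was -0.28 ± 0.11 (SE), a ratio of 0.825, short of the threshold (unadjusted p = 0.0331, adjusted p = 0.575 in limma, exact two-sided permutation p = 0.0857). With runs of mouse numbers as a block it was -0.23 with an unadjusted limma p of 0.135, and without replicate 4 of wt/cTg it was -0.37. Pdk1, which closes pyruvate dehydrogenase by phosphorylation, differed by -0.02 ± 0.09, with an interval from -0.22 to 0.19, and by -0.29 in its second probe set.

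Of the 14 other hypoxia genes 13 were tested, 4 higher and 9 lower in Atgl KO/cTg, with a median difference of -0.06 (0.02 without Atgl KO/cTg replicate 1) and 0 past the adjusted threshold. P4ha1, the catalytic subunit of collagen prolyl 4-hydroxylase, had the smallest p-value of all members. It read 7.41, 7.53, 7.73 and 7.49 in Atgl KO/cTg, against 8.08, 7.76, 7.83 and 7.90 in wt/cTg (log2). The groups did not overlap, with replicate 3 of Atgl KO/cTg closest to replicate 2 of wt/cTg. The difference was -0.35 ± 0.10 (SE), a ratio of 0.785 (95% interval 0.671 to 0.918), with an unadjusted p of 0.00584 and an adjusted p of 0.433 in limma and an exact two-sided permutation p of 0.0286. P4ha2, the paralogous subunit, differed by -0.02 ± 0.10. Fibroblasts hydroxylate much of the collagen they secrete, and the fibroblast and smooth muscle markers lay on the same side as P4ha1: 0 of 10 were above 0, their median difference was -0.37, their mean log2 levels ran from 7.70 to 8.18 in Atgl KO/cTg, against 8.11 to 8.66 in wt/cTg, and their part in the P4ha1 value was not tested.

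The HIF subunit and the prolyl hydroxylases among the members did not pass the threshold. Hif1a read 8.19, 8.44, 8.33 and 8.36 in Atgl KO/cTg, against 8.68, 8.26, 8.55 and 8.25 in wt/cTg. The groups overlapped, and the difference was -0.11 ± 0.11 (SE), with an interval from -0.35 to 0.14 and an adjusted p of 0.855 in limma. HIF-1 alpha is controlled mainly at the level of the protein, which the array does not measure. Egln1, the main HIF prolyl hydroxylase, differed by -0.06 ± 0.10. Egln3, an oxygen-responsive hydroxylase that HIF induces, differed by 0.24 ± 0.22, and its wt/cTg pools ran from 4.94 to 6.01. Without replicate 2 of wt/cTg its difference was 0.07, and without replicate 1 of wt/cTg 0.43.

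The secreted and signalling hypoxia genes were among the most variable members. Vegfa, the endothelial growth factor, differed by -0.19 ± 0.19 (log2, SE), with wt/cTg replicate 4 at 9.67 and the other wt/cTg pools at 8.99 to 9.09. Without that pool the Vegfa difference was -0.03, without replicate 2 of Atgl KO/cTg it was -0.07, without replicate 1 of Atgl KO/cTg -0.11, and without replicate 3 of Atgl KO/cTg -0.34. Adm, the vasodilator peptide adrenomedullin, differed by -0.19 ± 0.18, with Atgl KO/cTg pools from 5.69 to 6.62. Its difference was -0.02 without replicate 1 of Atgl KO/cTg, -0.10 without replicate 1 of wt/cTg and -0.33 without replicate 4 of Atgl KO/cTg. Neither gene's groups separated. Car9, the membrane carbonic anhydrase that exports acid, differed by 0.17 ± 0.16, and its second probe set gave 0.20. Without replicate 3 of Atgl KO/cTg the Car9 difference was 0.02, and without replicate 2 of Atgl KO/cTg 0.29.

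The remaining 5 hypoxia genes showed little difference. Mxi1, a MAX-binding repressor and the member of this group with the highest mean, read 10.36, 10.92, 10.77 and 10.41 in Atgl KO/cTg, against 10.60, 10.84, 10.45 and 10.56 in wt/cTg. Both groups had a mean of 10.61, and the interval ran from -0.28 to 0.28. Bnip3, a mitophagy receptor, differed by -0.08 ± 0.14. Kdm3a, a histone demethylase, differed by -0.06 ± 0.10, Ndrg1, a stress-responsive differentiation gene, by 0.03 ± 0.12, and Higd1a, a mitochondrial inner membrane protein, by 0.01 ± 0.10.

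A few pools held many of the members' extremes. The pool wt/cTg replicate 1 had the highest value of the 8 for 10 of the 29 members (34.5%), which were Pfkl, Tpi1, Gapdh, Pgk1, Pdk1, Adm, Egln3, Ndrg1, P4ha1 and Hif1a, and the lowest for 0. Over all tested genes it was highest for 20.5%. Its median deviation from the 8-pool mean was 0.12 for the members and 0.07 for all genes. Atgl KO/cTg replicate 1 was lowest for 9 members, 7 of them among the 13 other hypoxia genes (Adm, Bnip3, P4ha1, P4ha2, Egln1, Mxi1 and Hif1a), and it was lowest for 21.1% of all genes. In wt/cTg replicate 4, 5 of the 11 glycolytic enzymes had their lowest value, and over all tested genes it was lowest for 15.4%. Without that pool the differences of Hk2 and Pgk1 became 0.04 and 0.00041. Without wt/cTg replicate 1 the differences of Pgk1 and Slc2a1 became 0.20 and 0.18 with unadjusted p-values of 0.0381 and 0.0493 in limma, and the P4ha1 difference became -0.29.

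**Figure D3:**
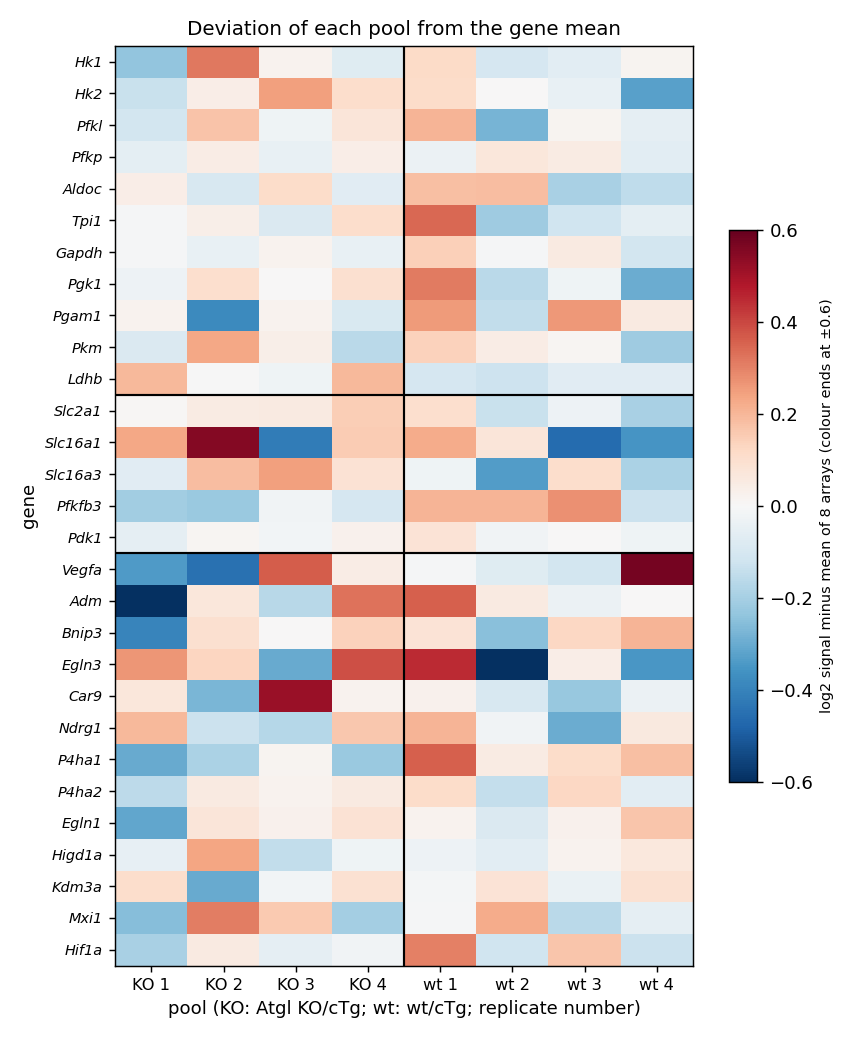
Deviation of each tested member from its own mean over the 8 pools (log2, colour scale), with members in rows by group and pools in columns. The column of wt/cTg replicate 1 holds the highest value for 10 members, and that of Atgl KO/cTg replicate 1 the lowest for 9.

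Genes around the pathway were read from lists written from textbook knowledge. Of 15 tested further glycolysis genes, 10 were above 0, and the median difference was 0.04. In limma 0 had an unadjusted p under 0.05, beside 7.95% of all genes. The 3 with the smallest p were Hk3, a hexokinase of blood cells, at 0.27 ± 0.13 (SE), Slc5a1, the sodium-coupled glucose transporter, at 0.29 ± 0.22, and Pfkfb2, the heart form of the Pfkfb3 enzyme, at -0.12 ± 0.11. Hk3 is also expressed in neutrophils, whose 7 tested markers had a median difference of 0.56. The part of those cells in its value was not tested.

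Pyruvate entry and the storage branches held single genes with larger values, none past the adjusted threshold in limma. Of 14 tested genes of pyruvate entry and gluconeogenesis, 3 had an unadjusted limma p under 0.05 (21.4%, beside 7.95% of all genes). The groups did not overlap for 1 of the 14, beside 4.35% of all genes. Pcx, the pyruvate carboxylase that feeds the citric acid cycle with oxaloacetate, read 6.89, 6.88, 6.79 and 7.25 in Atgl KO/cTg, against 6.74, 6.40, 6.25 and 6.43 in wt/cTg. Every Atgl KO/cTg pool was above every wt/cTg pool, and the difference was 0.50 ± 0.14 (SE; adjusted p = 0.398 in limma). Pdk4, the fasting-induced pyruvate dehydrogenase kinase and a target of PPAR alpha, read 6.59, 6.51, 6.49 and 6.78 in Atgl KO/cTg, against 7.07, 6.57, 7.43 and 7.46 in wt/cTg. Its wt/cTg mean was higher, with 1 wt/cTg pool inside the Atgl KO/cTg range, at -0.54 ± 0.18 (SE; adjusted p = 0.492 in limma). Pdha1, a subunit of pyruvate dehydrogenase, differed by 0.19 ± 0.08.

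Of 11 tested genes of the pentose phosphate and glycogen branches, 2 had an unadjusted limma p under 0.05 (18.2%, beside 7.95% of all genes). The groups did not overlap for 1 of the 11, beside 4.35% of all genes. Ppp1r3c, which targets a phosphatase to glycogen, differed by -0.53 ± 0.15 (log2, SE) and Pygl, the liver glycogen phosphorylase, by 0.29 ± 0.10, with groups that did not overlap for Pygl. Gys1, a glycogen synthase, was the next by p, at 0.28 ± 0.13.

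Among 11 tested oxygen sensing genes and HIF subunits, 2 had an unadjusted limma p under 0.05 (18.2%, beside 7.95% of all genes). The groups did not overlap for 2 of the 11, beside 4.35% of all genes. Siah1a, a ubiquitin ligase that acts on the prolyl hydroxylases, differed by -0.43 ± 0.13 (log2, SE), and Hif1an, the asparaginyl hydroxylase that blocks HIF activity, by -0.34 ± 0.11. The groups of both did not overlap, and their adjusted p-values in limma were 0.436 and 0.456. Eaf2 was the next by p, at 0.25 ± 0.14. Epas1, which encodes HIF-2 alpha, had a mean of 11.17 in both groups, with an interval from -0.12 to 0.12. Arnt, the HIF beta subunit, differed by -0.02 ± 0.10, its paralogue Arnt2 by 0.21 (adjusted p = 0.749 in limma) and Vhl, which marks HIF for degradation, by -0.03 ± 0.14.

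**Figure D4:**
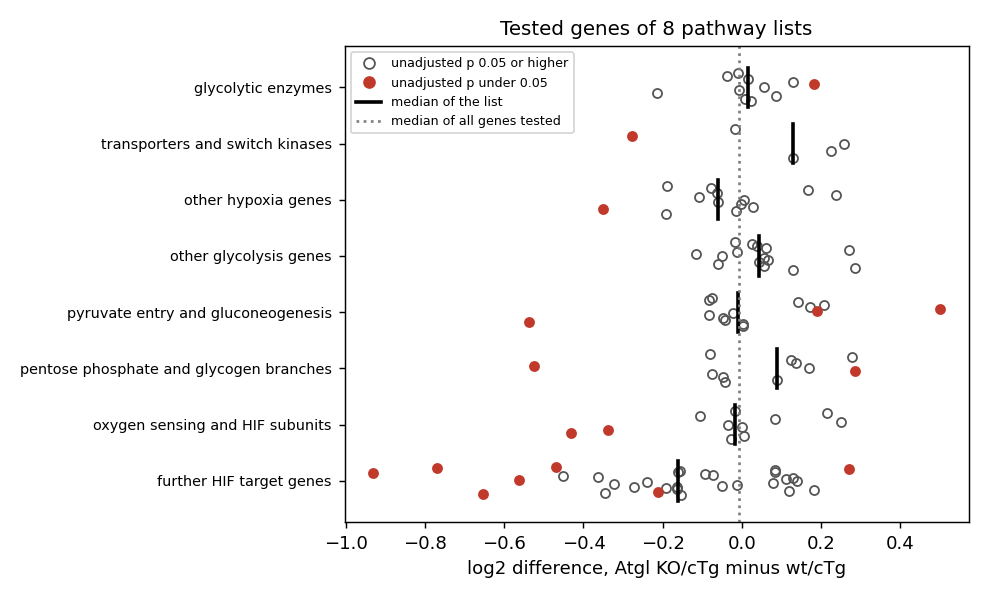
Differences (Atgl KO/cTg minus wt/cTg, log2) of every tested gene in the 3 member groups and 5 further pathway lists, points for genes and a bar for each list's median. The further HIF targets have the lowest median, -0.16, and the glycolytic enzymes one of 0.01.

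A further list of HIF targets beyond the members had more genes below 0 than above. Of 31 tested, 22 were below 0 (71.0%, beside 52.2% of all genes), the median difference was -0.16, and 0 passed the adjusted threshold. An unadjusted limma p under 0.05 was found for 7 (22.6%, beside 7.95% of all genes). The groups did not overlap for 3 of the 31, beside 4.35% of all genes. Hk2, a member, stands in this list too, and without it and Pfkfb4 29 genes were left with the same 7 and a median of -0.16. Lower among the 7 were Vldlr, Edn1, Angptl4, Igfbp3, Ak4 and Tfrc, and Bhlhe40, a circadian repressor, was higher at 0.27 ± 0.10 (log2, SE). Edn1 is made mainly by endothelial cells, and the 10 endothelial markers had 3 above 0 and 7 below and a median difference of -0.24 (mean log2 levels of 8.27 to 8.74 in Atgl KO/cTg, against 8.34 to 9.07 in wt/cTg). Only Car4 of these markers had an unadjusted limma p under 0.05, and it was higher in Atgl KO/cTg, at 0.37. The fibroblast and smooth muscle markers and the alveolar type 2 markers were all below 0, with medians of -0.37 and -0.38. All tested neutrophil, goblet cell and ciliated cell markers were above 0. The part of endothelial or other cells in the list's values was not tested.

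The largest of these values belonged to genes of lipid handling and vascular signalling. Vldlr, a receptor for triglyceride-rich lipoproteins, read 5.49, 5.55, 5.93 and 5.83 in Atgl KO/cTg, against 6.35, 6.46, 6.05 and 6.57 in wt/cTg, a difference of -0.65 ± 0.15 (SE; adjusted p = 0.253 in limma). Edn1, the vasoconstrictor endothelin, read 6.42, 5.65, 7.03 and 6.47 in Atgl KO/cTg, against 7.09, 7.38, 7.17 and 7.66 in wt/cTg, a difference of -0.93 ± 0.24 (SE; adjusted p = 0.367 in limma). In both genes the groups did not overlap, and for Edn1 Atgl KO/cTg replicate 3 lay just under wt/cTg replicate 1. Angptl4, an inhibitor of lipoprotein lipase that both HIF and PPARs induce, read 5.73, 5.50, 5.66 and 6.15 in Atgl KO/cTg, against 6.75, 5.76, 6.78 and 6.84 in wt/cTg, a difference of -0.77 ± 0.23 (SE; adjusted p = 0.438 in limma). Only wt/cTg replicate 2 lay within the Atgl KO/cTg range. Hilpda, a HIF target whose protein inhibits ATGL and which was named after its values were seen, differed by -0.36 ± 0.20, with an interval from -0.80 to 0.07 (adjusted p = 0.693 in limma). Without replicate 4 of wt/cTg its difference was -0.18.

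**Figure D5:**
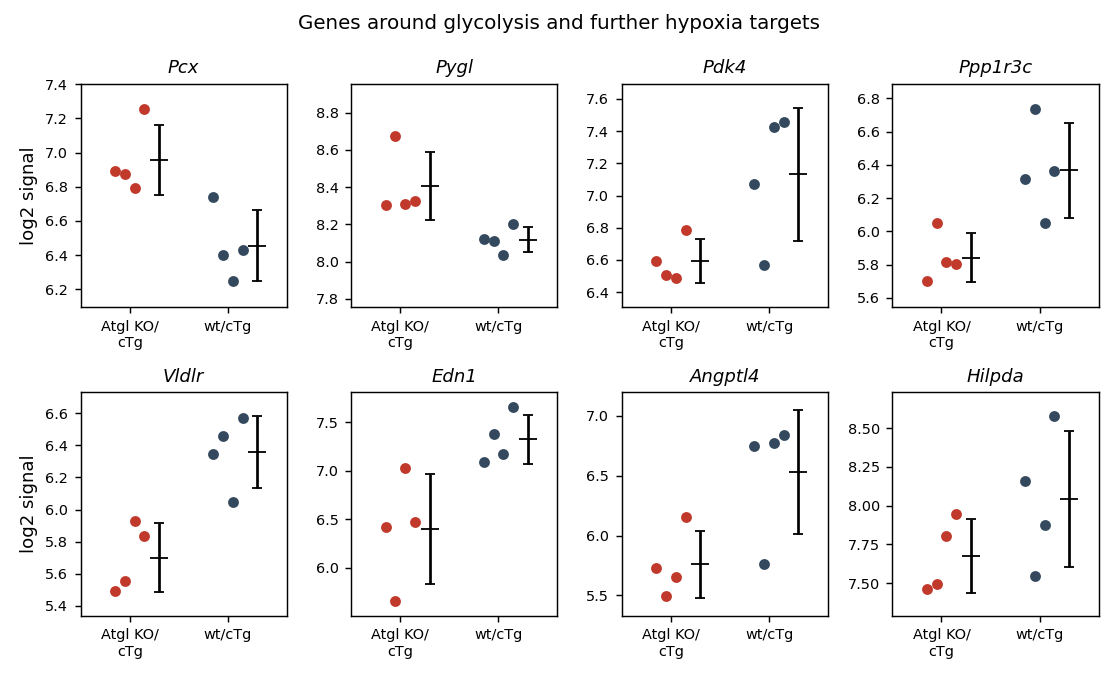
Log2 signal in each of the 8 pools of Pcx, Pygl, Pdk4, Ppp1r3c, Vldlr, Edn1, Angptl4 and Hilpda, points for single pools and lines for group means with SD. Pcx, Pygl, Vldlr and Edn1 do not overlap between genotypes, and Angptl4 overlaps through wt/cTg replicate 2.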

How the data were processed

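The genotype label put 4 arrays in each group. The labels' protocols name the miRNeasy Micro kit for RNA and an Ovation Pico WTA amplification of 50 ng before biotin labelling. The values as deposited are log2 signals of probe sets, from 1.85 to 13.5, and were not transformed further. The unit was read from the values. The authors' software and normalization were not given in the sources used here. Signal above background and scan batches could not be examined, and the number of arrays limits the precision.

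Of 41345 probe sets, 23521 had 1 symbol in the platform annotation, 1814 had several and 16010 had none listed. A gene was represented by its probe set of highest mean, and the 13112 genes above the median of the probe sets' means (5.18) were tested. The test was limma 3.58.1 under R 4.3.3 (lmFit, eBayes with a variance trend), two-sided, with Benjamini-Hochberg adjustment at 0.05 over all of them, and the steps were tested on simulated data. The exact permutation test used all 70 arrangements, so its smallest two-sided p is 0.0286. The labels do not say that pools came from separate isolations, so p-values measure the spread between these pools.

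Replicate numbers follow sample order and pair nothing. Every array's value is given for members with an unadjusted p under 0.05 or groups that do not overlap, the member of highest mean in each group, and Hif1a. Of each further list the 3 genes of smallest p are named, and others beyond these were named after their values were seen. The members and lists were chosen with earlier results of these data known. Figures were drawn with matplotlib 3.10.9.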

Additional observations from a re-analysis of the deposited data

Results flagged for a closer look

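In 6 of 110 groups of 4 pools examined, the highest or lowest pool lay farther from its neighbour, as a share of the group's range, than Dixon's 95% limit for 4 values, and chance alone gives about 1 in 20. Among the members this held for Vegfa in wt/cTg, where the share was 0.853 and replicate 4 read 9.67 against 8.99 to 9.09 in the others. It held for P4ha2 in Atgl KO/cTg, at 0.844, with replicate 1 at 6.88 against 7.05 to 7.09. It also held for Egln1 in Atgl KO/cTg, at 0.843, with replicate 1 at 8.46 against 8.79 to 8.86. Outside the members, Pygl in Atgl KO/cTg reached 0.935, with replicate 2 at 8.68 against 8.30 to 8.33. Angptl4 in wt/cTg reached 0.911, with replicate 2 at 5.76 against 6.75 to 6.84, and Xist in wt/cTg reached 0.947, with replicate 4 at 3.75 against 10.30 to 10.67.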

How the results depend on the processing

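Under the 14 alternatives the members past the adjusted limma threshold stayed at 0, and the lowest adjusted p of any member was 0.351, for P4ha1 after quantile normalization. P4ha1 had an unadjusted p under 0.05 in 14 of 14 alternatives, Ldhb and Pfkfb3 in 8 each. The 3 members with an unadjusted p under 0.05 became 1 with runs of mouse numbers from the titles as a block, and 1 (without Atgl KO/cTg replicate 1) to 4 with single arrays left out. In that block wt/cTg replicate 3 was alone in its run and adds nothing to the difference. The 13 genes past the threshold became 7 with no level filter, 1 without a variance trend, 1 after quantile normalization, 3 with the block, and 1 to 25 with single arrays left out. The cause was not tested.

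The sign held in every alternative for 13 of the 29 tested members and turned in at least 1 for 16, of which Pgam1 had the largest difference. When probe sets of a gene were averaged, Pgam1 became 0.051 and Mxi1 0.044. With median centring, Hk1 became -0.016, Tpi1 -0.0065, Pkm -0.022, Ndrg1 -0.0021, Higd1a -0.024 and Epas1 -0.030. With the block, Hk1 became -0.021, Pfkp 0.0096, Tpi1 -0.045, Pkm -0.015, Ndrg1 -0.082, P4ha2 0.018, Higd1a -0.0027 and Epas1 -0.021. With quantile normalization, Pfkp became 0.014 and Arnt 0.0080.

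With single arrays left out, differences that turned ran from -0.075 to 0.052 for Aldoc, -0.081 to 0.070 for Arnt, -0.17 to 0.040 for Bnip3, -0.10 to 0.030 for Egln1, -0.024 to 0.022 for Epas1, -0.082 to 0.0025 for Gapdh, -0.072 to 0.057 for Higd1a, -0.089 to 0.096 for Hk1 and -0.11 to 0.030 for Kdm3a. They ran from -0.10 to 0.084 for Mxi1, -0.066 to 0.10 for Ndrg1, -0.065 to 0.034 for P4ha2, -0.030 to 0.0065 for Pdk1, -0.027 to 0.13 for Pfkl, -0.031 to 0.013 for Pfkp, -0.067 to 0.064 for Pkm, -0.044 to 0.14 for Tpi1, -0.11 to 0.069 for Vhl and -0.54 to 1.77 for Xist. No paired analysis was possible because replicate numbers follow sample order and no label says which pools form a set. The block by runs, which joins pools with close first mouse numbers, is not a pairing. Its run 1 held replicates 1 and 2 of Atgl KO/cTg with replicate 1 of wt/cTg, and its run 3 only replicate 3 of wt/cTg.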
